A study of Mus musculus with 6 samples.

Results

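The proteins of the mitochondrial ribosome were followed at the RNA level in extensor digitorum longus (EDL), a fast-twitch muscle of the lower hind limb. The genes were all those whose symbol starts with Mrpl or Mrps followed by a digit, which gave 77 of the 24411 genes in the table: 48 Mrpl genes, named for the large subunit, and 29 Mrps genes, named for the small subunit. All 77 passed the filter on low counts and were among the 12892 genes tested. The 6 mice were 3 mAktDKO mice (Mlc1f-Cre:Akt1/2-floxed) and 3 control mice (Akt1/2-floxed), all labelled C57BL/6J and 50 weeks old. The controls therefore carried the floxed alleles of both genes as well. Cre was knocked in downstream of the promoter of Mlc1f, a myosin light chain of fast-twitch fibers, so cells of the EDL in which that promoter is not active keep both genes. RNA came from whole EDL, in which fewer cells of a type and less RNA per cell cannot be told apart. The samples are labelled as single mice, and the p-values measure the spread between these 3 mice per group.

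Mitochondrial ribosomes translate the few proteins that the mitochondrial genome still encodes, all of them core subunits of the respiratory chain complexes and of ATP synthase. Their rRNAs are transcribed inside the organelle, while every protein of both subunits is encoded in the nucleus, made on cytosolic ribosomes and imported. The small subunit binds the mRNA and reads the codons, and the large subunit holds the peptidyl transferase center and the exit tunnel, which faces the inner membrane. Some of the proteins have a counterpart in the bacterial ribosome, and the others were acquired by mitochondria. Akt, the kinase downstream of the insulin receptor that was deleted here, acts on growth and metabolism of the fiber.

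Of the targeted genes, Akt2 was called and Akt1 was not. The paper measured Akt in EDL of younger mAktDKO mice by RT-PCR and western blotting, and reported Akt proteins down-regulated in skeletal muscle. A count per gene, as used here, does not show whether the floxed part of a transcript is missing. Akt2 stood at 51.3, 49.1 and 52.7 CPM (the count relative to the size of its library, scaled by TMM) in the 3 mAktDKO mice and at 172, 133 and 143 CPM in the 3 controls, a log2 fold change of -1.55 with an SE of 0.11 (adjusted p = 0.000923 by the Benjamini-Hochberg method, edgeR quasi-likelihood test). The call at 0.01 was lost when any 1 of the mAktDKO mice was left out, with an adjusted p of 0.0208, 0.0188 and 0.0165 in edgeR without mouse 1, 2 and 3 and a log2 fold change of -1.55, -1.52 and -1.59, while it held without any 1 of the controls. Akt1 was at 58.9, 56.8 and 51.4 CPM against 66.4, 65.5 and 66.5 CPM, a log2 fold change of -0.25 with an SE of 0.08 (adjusted p = 0.115 in edgeR), and all mAktDKO mice lay below all controls. With library totals the log2 fold change of Akt1 was -0.11 (adjusted p = 0.489 in edgeR). Total counts were 13738795 to 15445523 per mouse, and 3 counts, the smallest level the depth can show, equal 0.194 to 0.218 CPM. The 77 genes had 73 to 1189 counts per mouse, or 5.01 to 83.1 CPM, far above that floor. Markers of fast fibers were the most abundant of the marker lists, with a summed level of 85879 to 95585 CPM in the mAktDKO group and 96618 to 104959 CPM in the controls. At an unadjusted p under 0.05, 3 of the 7 were lower, as were 13.1% of all tested genes. The log2 fold changes of the 7 ran from -0.79 (Myh2) to -0.02 (Myh4), so they were not lower to the same degree.

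The genes lay on 17 chromosomes. For 68 of them, RefSeq (GRCm38.p6) gave the promoter, here the window from 250 bases before to 50 bases after the start of transcription, with 74 windows in all. The windows were searched on both strands for the letters of 6 elements. CCGGAAGT, bound by ETS factors such as GABP (NRF-2), stood in the promoters of 12 of 68 genes (17.6%), of 5.69% of all protein-coding genes, and in 3.89% of all 32851 promoters of that length. GCGCANGCG, the core of the element bound by NRF1, stood in 16 (23.5%), for 9.63% of protein-coding genes and in 6.25% of all promoters. AAGATGGC, bound by YY1, stood in 12 (17.6%), for 3.57% of protein-coding genes and in 2.75% of all promoters. At least 1 of these 3 was found for 37 of 68 genes (54.4%), against 17.1% of all protein-coding genes. The cAMP response element TGACGTCA was found for 2 genes (2.94%), against 2.54% of protein-coding genes and 1.79% of all promoters. The E-box CACGTG, a palindrome, was found for 5 genes (7.35%), against 8.91% of protein-coding genes and 7.15% of all promoters. The core promoter element TATAAA was also found for 5 genes (7.35%), against 14.8% of protein-coding genes and 13.6% of all promoters. The median GC content of the windows was 58.5%, against 52.7% for all promoters. A match is a stretch of letters and not a bound site.

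The following promoters are shown because their genes carry the comparison below, 6 of them from genes described with the smallest p-values of their subunit, 1 that serves a gene of each subunit, and 1 from a gene that was not lower in the mAktDKO mice. Mrps26, Mrpl2 and Mrpl28 have the 3 smallest p-values of the 77 genes, and Mrpl33, Mrpl12 and Mrps24 were added because they hold a matched element. The window of Mrpl28 holds none of the 6 elements. Nor do those of Mrpl53, Mrpl55, Mrps23 and Mrps16, which were also named for a small p-value and are not shown. Each runs 5′ to 3′ on the strand of its gene, in GRCm38.p6, and capitals mark the matched letters. They are Mrps26 (chr2:130563507-130563806, plus strand), Mrpl2 (chr17:46645979-46646278, plus), Mrpl28 (chr17:26123253-26123552, plus), Mrpl33 (chr5:31613701-31614000, plus), Mrpl12 (chr11:120484387-120484686, plus), Mrps24 (chr11:5707652-5707951, minus), Mrps11 (chr7:78782881-78783180, plus) and Mrpl22 (chr11:58171414-58171713, plus).
Mrps26: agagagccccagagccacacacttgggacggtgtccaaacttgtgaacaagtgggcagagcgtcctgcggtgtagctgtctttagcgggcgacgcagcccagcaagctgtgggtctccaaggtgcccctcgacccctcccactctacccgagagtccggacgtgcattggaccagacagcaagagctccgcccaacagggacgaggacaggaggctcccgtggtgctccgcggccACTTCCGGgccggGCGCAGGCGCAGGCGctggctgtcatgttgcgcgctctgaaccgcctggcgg
Mrpl2: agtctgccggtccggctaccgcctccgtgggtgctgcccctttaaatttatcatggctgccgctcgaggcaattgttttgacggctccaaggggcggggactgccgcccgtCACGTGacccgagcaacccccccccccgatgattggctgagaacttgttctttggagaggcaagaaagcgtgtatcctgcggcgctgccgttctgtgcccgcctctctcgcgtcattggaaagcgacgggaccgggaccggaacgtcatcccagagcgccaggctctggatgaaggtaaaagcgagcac
Mrpl28: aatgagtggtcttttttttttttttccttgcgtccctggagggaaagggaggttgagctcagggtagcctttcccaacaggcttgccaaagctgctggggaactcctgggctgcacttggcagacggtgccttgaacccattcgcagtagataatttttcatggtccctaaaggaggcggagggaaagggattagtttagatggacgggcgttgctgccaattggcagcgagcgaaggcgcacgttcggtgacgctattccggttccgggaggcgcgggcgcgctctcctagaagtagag
Mrpl33: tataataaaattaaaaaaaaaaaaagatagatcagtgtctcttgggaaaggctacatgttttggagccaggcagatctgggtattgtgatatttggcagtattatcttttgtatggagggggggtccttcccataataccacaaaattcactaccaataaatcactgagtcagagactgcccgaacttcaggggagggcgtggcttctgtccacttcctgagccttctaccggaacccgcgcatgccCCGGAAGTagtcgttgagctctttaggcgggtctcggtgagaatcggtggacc
Mrpl12: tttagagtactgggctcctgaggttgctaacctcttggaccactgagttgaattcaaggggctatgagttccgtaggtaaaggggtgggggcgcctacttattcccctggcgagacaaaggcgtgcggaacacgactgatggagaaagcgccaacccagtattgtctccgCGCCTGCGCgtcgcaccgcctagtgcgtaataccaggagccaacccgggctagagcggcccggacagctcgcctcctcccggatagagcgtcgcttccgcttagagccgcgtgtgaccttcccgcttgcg
Mrps24: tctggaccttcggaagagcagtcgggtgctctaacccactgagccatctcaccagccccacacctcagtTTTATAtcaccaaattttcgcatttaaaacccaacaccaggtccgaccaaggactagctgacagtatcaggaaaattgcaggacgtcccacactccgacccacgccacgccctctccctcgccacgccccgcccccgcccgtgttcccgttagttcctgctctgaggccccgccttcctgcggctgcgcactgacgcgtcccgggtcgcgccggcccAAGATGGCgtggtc
Mrps11: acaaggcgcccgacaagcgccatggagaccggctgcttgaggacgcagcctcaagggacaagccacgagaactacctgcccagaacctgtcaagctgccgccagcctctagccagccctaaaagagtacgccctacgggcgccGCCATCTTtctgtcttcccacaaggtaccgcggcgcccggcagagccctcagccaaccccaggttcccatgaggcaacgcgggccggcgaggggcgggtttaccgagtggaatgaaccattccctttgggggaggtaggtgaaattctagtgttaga
Mrpl22: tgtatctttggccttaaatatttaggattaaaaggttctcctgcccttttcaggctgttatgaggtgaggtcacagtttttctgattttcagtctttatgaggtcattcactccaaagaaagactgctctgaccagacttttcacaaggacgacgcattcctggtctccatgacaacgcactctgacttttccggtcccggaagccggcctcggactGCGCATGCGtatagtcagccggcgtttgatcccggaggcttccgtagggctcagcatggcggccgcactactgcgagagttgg

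In Mrps26 the capitals are an ETS element on the opposite strand, from 15 to 8 bases before the start, and then a pair of NRF1 cores that overlap each other and span the start. In Mrpl2 they are an E-box alone. In Mrpl33 they are an ETS element across the start, from base -3 to base 4. Mrpl12 holds an NRF1 core on the opposite strand 80 to 72 bases before the start, and Mrpl22 an NRF1 core 33 to 25 bases before it. In Mrps24 they are a TATAAA on the opposite strand far upstream, from base -181 to base -176, and a YY1 element 36 to 43 bases after the start. The window of Mrps11 holds a YY1 element on the opposite strand, and it also contains the start of Mrpl46, which runs the other way: the RefSeq starts are at bases 78783131 and 78783089 of chromosome 7, 42 bases apart.

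Of the 77 genes, 69 had a log2 fold change below 0 in the mAktDKO mice, where 47.5% of all tested genes did. The median log2 fold change was -0.27, which is 82.9% of the control level, and the median of all tested genes was 0.02. The study set its threshold at an adjusted p under 0.01 in DESeq2, whereas the main test here was that of edgeR. At an adjusted p under 0.01, 0 of the 77 were called by edgeR and 0.0233% of all tested genes, 3 in all. At an adjusted p under 0.05, 2 of the 77 were lower (all tested genes 0.915%). At an unadjusted p under 0.05, 39 of the 77 (50.6%) were lower and 0 were higher, where 13.1% of all tested genes were lower and 11.4% higher. In 40 of the 77 genes all 3 mAktDKO mice lay below all 3 controls, and in 0 the groups were separated the other way (all tested genes 16.6% and 14.6%). DESeq2's Wald test called 6 of the 77 at an adjusted p under 0.01, namely Mrps26, Mrpl2, Mrpl28, Mrpl53, Mrpl33 and Mrpl12, all lower, among 338 of all genes. DESeq2 was run on 17360 genes, without the filter of edgeR, and edgeR without its filter called 0 of the 77 and 32 of all genes.

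These counts depend on the scaling between libraries. When plain library totals replaced TMM, the median of all genes moved from 0.02 to 0.16, the median of the 77 genes to -0.13, 58 of the 77 instead of 69 were below 0, and 15 instead of 39 were lower at an unadjusted p under 0.05, against 5.02% of all tested genes. There 1 of the 77, Mrps36, was higher at that p instead of 0. Of the 12892 tested genes, 3616 had such a p with library totals, and only 647 of these were lower, the rest being higher. Of the genes at an unadjusted p under 0.05, 53.5% were lower with TMM and 17.9% with library totals. Relative to the median of all genes, the 77 genes stood at -0.29 under both scalings, and 69 of 77 were below that median under both.

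**Figure D1:**
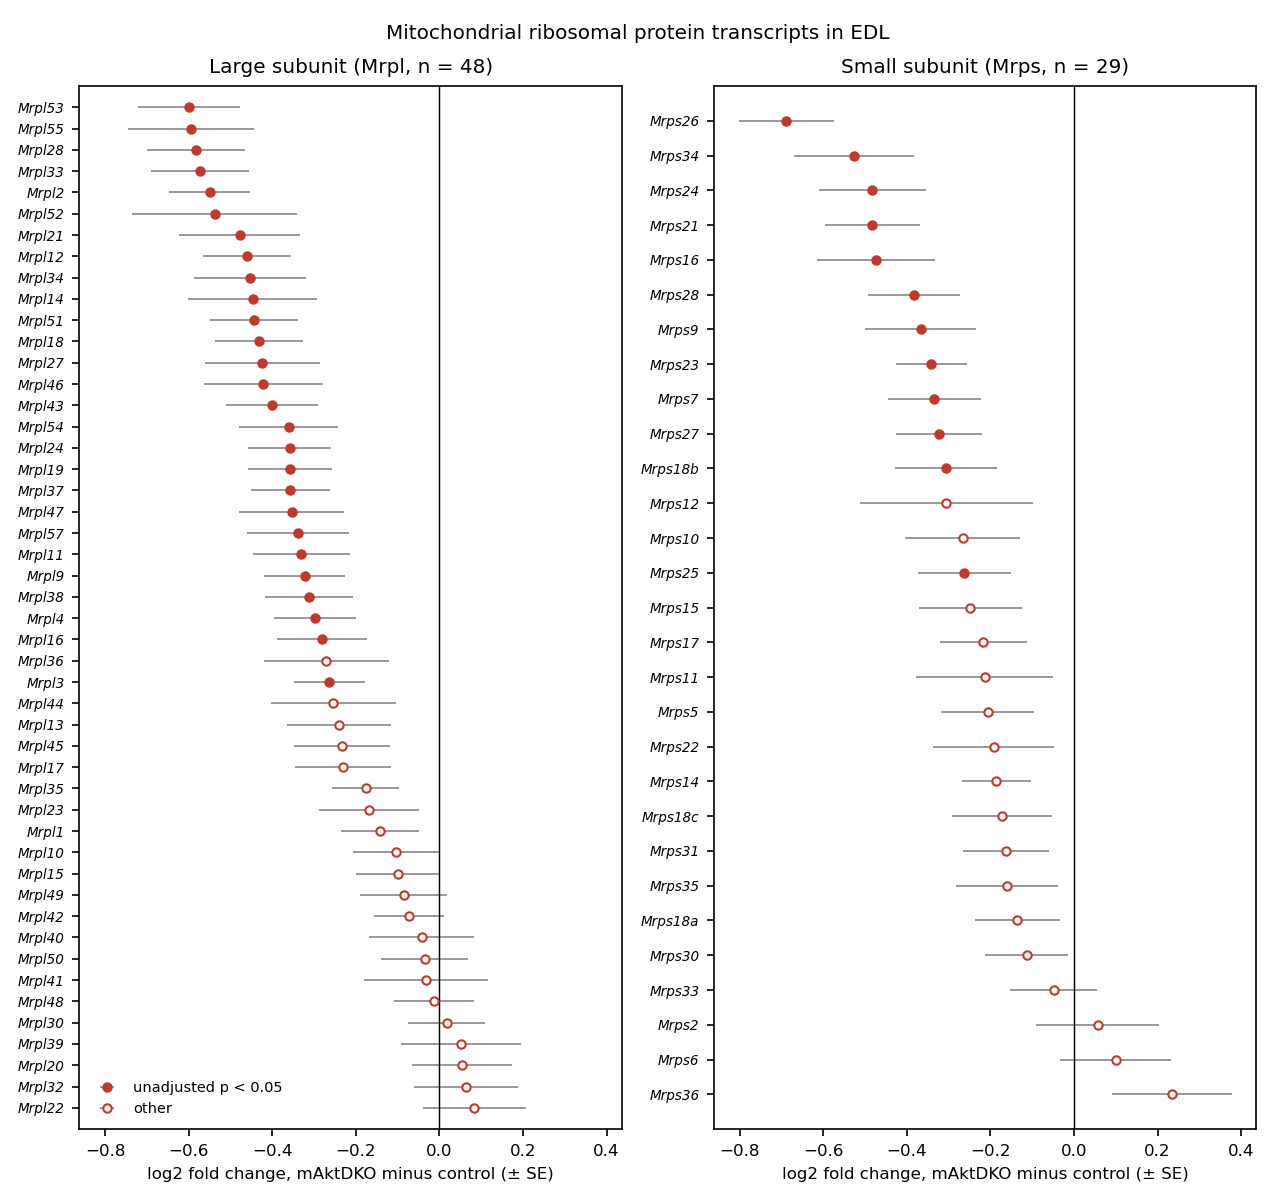
Log2 fold change (mAktDKO minus control, horizontal axis) of each of the 48 Mrpl and 29 Mrps genes, with the SE of edgeR's quasi-likelihood fit as the bar. Filled points have an unadjusted p under 0.05. They number 27 in the large and 12 in the small subunit, all to the left of 0, and Mrps36 at 0.23 is the farthest to the right.

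The mice could be compared by the mean log2 CPM over the 77 genes. It was 4.16, 4.05 and 4.09 in the mAktDKO mice and 4.43, 4.39 and 4.26 in the controls. The group means were 4.10 ± 0.054 and 4.36 ± 0.090 (SD, n = 3), a difference of -0.26, and the groups did not overlap. The levels of the 77 genes summed to 1557, 1444 and 1495 CPM in the mAktDKO group and to 1916, 1859 and 1683 CPM in the controls. The highest of the 77 genes' values most often came from control 2 (41 genes) or control 3 (26 genes), and the lowest from mAktDKO mouse 2 (38 genes) or 3 (20 genes). Among the controls, mouse 4 was the lowest for 49 of the 77 genes. Without it the median log2 fold change of the 77 genes was -0.35. Computed on plain library totals, with no TMM, the sums were 1671, 1569 and 1474 CPM against 1774, 1804 and 1620 CPM, and mAktDKO mouse 1 then lay above control 4.

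Large and small subunit were compared next. The median log2 fold change was -0.30 for the 48 Mrpl genes (81.0% of control) and -0.25 for the 29 Mrps genes (84.2% of control). Among the Mrpl genes 43 were below 0 and 27 lower at an unadjusted p under 0.05 (56.2%). Among the Mrps genes 26 were below 0 and 12 lower (41.4%). The mean log2 CPM of the Mrpl genes was 4.25, 4.14 and 4.22 in the mAktDKO mice and 4.54, 4.51 and 4.37 in the controls. That of the Mrps genes was 3.99, 3.90 and 3.89 against 4.24, 4.20 and 4.08. For both subunits, the highest mAktDKO mouse lay below the lowest control. The gap between the subunits, Mrpl minus Mrps in the same mouse, was 0.26, 0.23 and 0.32 in the mAktDKO mice and 0.30, 0.31 and 0.29 in the controls, and the groups overlapped. Its mean differed by -0.03, beside an SD of 0.046 among the mAktDKO mice and of 0.0093 among the controls.

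Symbols and subunits do not match for every gene. Mrps18a and Mrps30 are named for the small subunit, but their proteins sit in the large one, and Mrps36 is a subunit of the 2-oxoglutarate dehydrogenase complex of the citric acid cycle. With these 3 reassigned, the median was -0.29 for 50 genes of the large and -0.26 for 26 genes of the small subunit, a difference of -0.02. By symbol the difference was -0.06, and it ran from -0.09 without mAktDKO mouse 3 to -0.03 without mAktDKO mouse 2 when single mice were left out. By ancestry, the median of the 46 genes with a bacterial counterpart was -0.29 and that of the 30 mitochondria-specific genes was -0.26. Of the mitochondria-specific proteins, 10 of 10 that sit in the small subunit and 19 of 20 that sit in the large one were below 0.

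**Figure D2:**
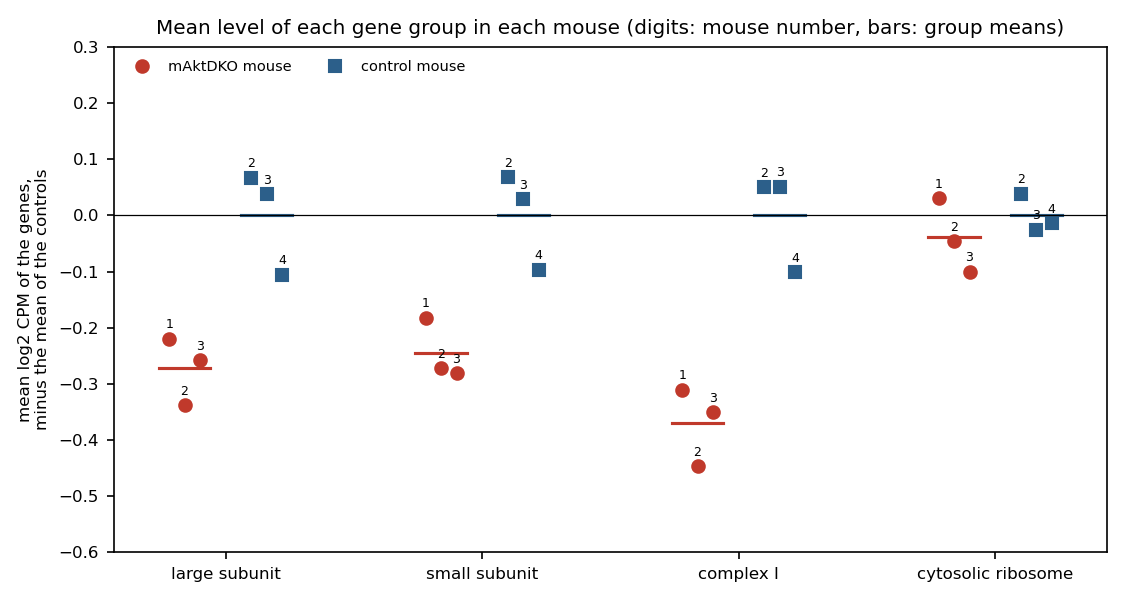
Mean log2 CPM of the genes of each group in each mouse, given as the difference from the mean of the 3 controls, with bars at the group means. The 3 mAktDKO mice lie below the 3 controls for the large subunit, the small subunit and the genes named as complex I subunits, whereas the mice overlap for cytosolic ribosomal proteins.

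In the large subunit, Mrpl2 had the smallest p-value. It encodes uL2m, a protein conserved from bacteria that lies near the peptidyl transferase center (chr17:46646229-46650139, plus strand). Its level was 28.8, 27.1 and 28.3 CPM in the mAktDKO group and 46.1, 38.3 and 38.9 CPM in the controls. The 3 mAktDKO mice lay close together, with a mean of 28.1 ± 0.851 CPM (SD, n = 3), and the controls had a mean of 41.1 ± 4.32 CPM. The log2 fold change was -0.55 with an SE of 0.10 (adjusted p = 0.0466, edgeR).

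Mrpl28, Mrpl33 and Mrpl55 encode 3 further proteins with a bacterial counterpart (bL28m, bL33m and bL31m). Mrpl28 (chr17:26123500-26126613, plus strand) stood at 19.2, 17.4 and 19.95 CPM in the mAktDKO group and at 32.2, 27.8 and 24.6 CPM in the controls, a log2 fold change of -0.58 with an SE of 0.12. Mrpl33 (chr5:31596935-31664384, plus strand), whose promoter with the ETS element across the start is printed above, stood at 32.3, 24.4 and 28.1 CPM against 46.1, 39.2 and 40.8 CPM, a log2 fold change of -0.57 with an SE of 0.12. Mrpl55 (chr11:59202486-59206134, plus strand) stood at 12.6, 10.8 and 13.9 CPM against 22.6, 16.05 and 17.6 CPM, a log2 fold change of -0.59 with an SE of 0.15. In all 3 genes the groups were separate, and the level was 66.2% to 67.2% of that in the controls. Where genes were named for a small p-value, here and below, separate groups add nothing to that p-value. Of all tested genes, 16.6% were lower with separate groups. Their adjusted p-values in edgeR were 0.052, 0.0539 and 0.0733.

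Mrpl12 encodes bL12m, the protein of the ribosomal stalk that recruits translation factors (chr11:120484613-120489065, plus strand). It was among the more abundant of the 77 genes, with 51.4, 47.8 and 44.4 CPM in the mAktDKO group and 69.8, 70.8 and 56.8 CPM in the controls. The log2 fold change was -0.46 with an SE of 0.11 (adjusted p = 0.0608, edgeR). Mrpl53 encodes mL53, a mitochondria-specific protein near the stalk (chr6:83109040-83109939, plus strand). It stood at 15.3, 13.0 and 16.3 CPM against 25.2, 21.2 and 20.9 CPM, the lowest log2 fold change of the large subunit (-0.60, SE 0.12, adjusted p = 0.0531 in edgeR). Both genes were separated between the groups, Mrpl12 with its closest mice 51.4 and 56.8 CPM.

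Mrpl51, which encodes the mitochondria-specific mL51 (chr6:125191801-125196269, plus strand), had the highest count of the 77 genes in a single mouse. It stood at 54.7, 51.8 and 52.5 CPM in the mAktDKO group and at 83.1, 70.0 and 63.2 CPM in the controls, a log2 fold change of -0.44 with an SE of 0.11 (adjusted p = 0.0645, edgeR). Mrpl18, which encodes uL18m of the central protuberance (chr17:12911349-12916345, minus strand), stood at 42.0, 36.4 and 36.5 CPM against 57.6, 50.9 and 46.5 CPM. Its log2 fold change was -0.43 with an SE of 0.10 (adjusted p = 0.0676, edgeR). The controls spread more widely than the mAktDKO mice in both genes, with control 2 on top.

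In the small subunit, Mrps26 had the smallest p-value and the lowest log2 fold change of all 77 genes. It encodes the mitochondria-specific mS26 (chr2:130563742-130568695, plus strand), and its promoter is the one with an ETS element and overlapping NRF1 cores at the start. Its level was 13.9, 11.3 and 12.3 CPM in the mAktDKO group and 22.0, 19.5 and 19.0 CPM in the controls. The mean of 12.5 ± 1.29 CPM (SD, n = 3) was 62.1% of the control level on the fitted scale, against 20.2 ± 1.63 CPM in the controls. The log2 fold change was -0.69 with an SE of 0.11 (adjusted p = 0.0396, edgeR).

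When each mouse was left out in turn, 0 to 8 of the 77 genes had an adjusted p under 0.05 in edgeR, where 3 to 388 of all tested genes did. The adjusted p-values of Mrps26 and Mrpl2 moved past 0.05 when single mice were left out. For Mrps26 it was 0.0966, 0.22 and 0.115 without mAktDKO mouse 1, 2 or 3 and 0.0911 without control 3, and it stayed under 0.05 without control 2 or 4. For Mrpl2 it was 0.119, 0.22 and 0.115 without each mAktDKO mouse and 0.0827 without control 3. Across these fits the log2 fold change was between -0.77 and -0.62 for Mrps26 and between -0.60 and -0.46 for Mrpl2. With library totals the adjusted p was 0.0563 for Mrps26 and 0.0604 for Mrpl2 in edgeR.

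Mrps21, Mrps24 and Mrps16 encode small subunit proteins with a bacterial counterpart (bS21m, uS3m and bS16m). Mrps21 (chr3:95862634-95871519, minus strand) stood at 25.9, 20.1 and 22.0 CPM in the mAktDKO group and at 31.8, 33.9 and 29.2 CPM in the controls, a log2 fold change of -0.48 with an SE of 0.11. Mrps24 (chr11:5703983-5715680, minus strand) stood at 18.5, 14.1 and 14.7 CPM against 24.5, 21.0 and 20.6 CPM, likewise -0.48 with an SE of 0.13. Mrps16 (chr14:20389304-20393634, minus strand) stood at 14.5, 11.8 and 10.3 CPM against 18.7, 16.6 and 15.6 CPM, -0.47 with an SE of 0.14. All 3 were separated between the groups, and their adjusted p-values in edgeR were 0.0637, 0.0799 and 0.0994. The annotated span of Mrps24 overlaps Urgcp on the same strand, so reads of the shared part may have been divided between them. Of the 77 genes, 13 overlap another annotated gene on the same strand, among them Mrpl2 (Gm26904), Mrpl33 (Gm43809), Mrpl53 (Gm42688), Mrpl51 (Mir3098) and Mrps28 (Gm15466).

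Mrps23, Mrps34 and Mrps27 encode mitochondria-specific proteins of the small subunit, mS27 being one of its RNA-binding pentatricopeptide repeat proteins. Mrps23 stood at 35.5, 33.3 and 31.3 CPM in the mAktDKO group and at 44.2, 42.3 and 40.3 CPM in the controls, a log2 fold change of -0.34 with an SE of 0.09 (adjusted p = 0.071, edgeR). Mrps34, whose span overlaps Nme3 on the same strand, stood at 26.3, 19.5 and 19.7 CPM against 35.0, 32.4 and 26.9 CPM, a log2 fold change of -0.53 with an SE of 0.14 (adjusted p = 0.0836, edgeR). Mrps27 stood at 19.4, 17.4 and 18.3 CPM against 23.2, 25.1 and 20.6 CPM, a log2 fold change of -0.32 with an SE of 0.10 (adjusted p = 0.114, edgeR). All 3 were separated between the groups, narrowly in Mrps34, where the closest mice stood at 26.3 and 26.9 CPM. Mrps28, the gene of bS1m, stood at 15.98, 13.8 and 17.1 CPM against 21.6, 19.3 and 20.1 CPM (-0.38, SE 0.11, adjusted p = 0.0935 in edgeR).

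**Figure D3:**
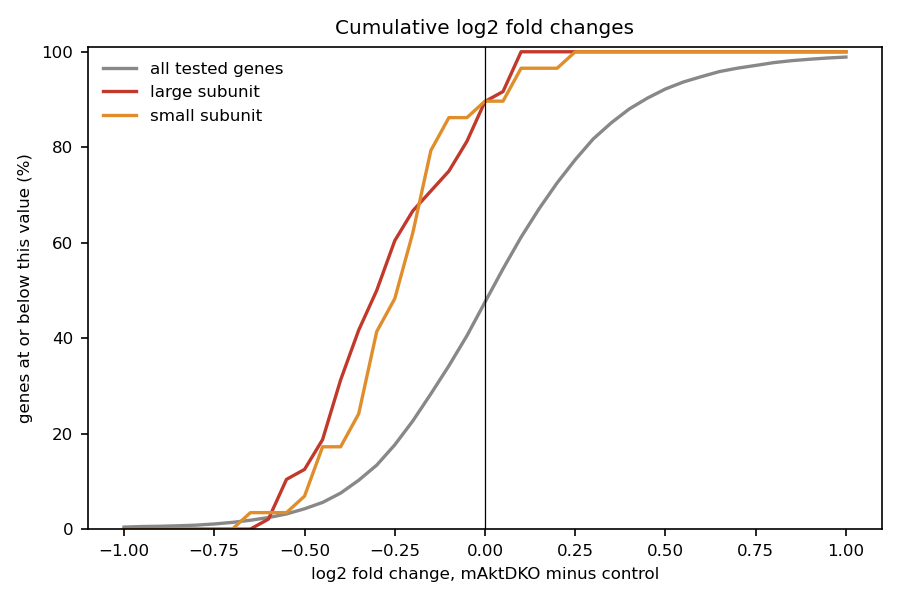
Share of genes (vertical axis, percent) at or below each log2 fold change (horizontal axis), for all tested genes, the 48 Mrpl genes and the 29 Mrps genes. Both subunits run left of all tested genes through the middle of the range, with medians of -0.30 and -0.25 against 0.02, and the highest gene is at 0.23.

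The Mrpl genes not described singly had log2 fold changes from -0.54 (Mrpl52, groups overlapping) to 0.05 (Mrpl39), and the remaining Mrps genes from -0.37 (Mrps9, groups overlapping) to -0.05 (Mrps33). A smaller group of genes was level between the groups or slightly higher in the mAktDKO mice, and with TMM scaling and all 6 mice none of these differences had an unadjusted p under 0.05 in edgeR. In the large subunit the 3 highest were Mrpl22, Mrpl32 and Mrpl20. Mrpl22 encodes uL22m, which lines the exit tunnel, and stood at 7.93, 7.79 and 7.47 CPM in the mAktDKO group and at 7.27, 7.81 and 6.80 CPM in the controls, a log2 fold change of 0.08 with an SE of 0.12. Mrpl32 encodes bL32m, which is matured by the m-AAA protease, and stood at 11.7, 12.2 and 11.1 CPM against 9.65, 12.5 and 11.4 CPM (0.06, SE 0.12). Mrpl20, for bL20m, stood at 9.45, 10.8 and 10.8 CPM against 9.09, 10.1 and 10.7 CPM (0.05, SE 0.12). The groups overlapped in all 3, and without control 2 Mrpl32 was at -0.035 and Mrpl20 at -0.011. An NRF1 core stood in the promoter of Mrpl22 as in those of Mrps26 and Mrpl12.

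Mrps36, the dehydrogenase subunit, had the highest log2 fold change of the 77 genes. It stood at 21.6, 24.5 and 22.2 CPM in the mAktDKO group and at 16.3, 23.9 and 17.9 CPM in the controls (0.23, SE 0.14, adjusted p = 0.333 in edgeR), and control 3 lay above mAktDKO mice 1 and 3. Its log2 fold change was 0.41 without control 3, with an unadjusted p under 0.05, 0.12 without control 2, and 0.37 with library totals. Among the true small subunit genes, Mrps6 (bS6m) stood at 7.55, 8.93 and 8.71 CPM against 8.25, 7.003 and 8.24 CPM (0.10, SE 0.13), and Mrps2 (uS2m) at 12.7, 17.1 and 13.4 CPM against 12.1, 13.8 and 15.7 CPM (0.06, SE 0.15). Mrps6 shares its span with Slc5a3 on the same strand, and its estimated counts include fractions. Of the 3 genes of the S18 family, Mrps18b stood at 17.9, 15.0 and 19.0 CPM against 23.1, 22.2 and 18.8 CPM (-0.31, SE 0.12, adjusted p = 0.172 in edgeR). Mrps18a had a log2 fold change of -0.14 (SE 0.10) and Mrps18c of -0.17 (SE 0.12), and the groups overlapped in all 3. Mrps30, the other large subunit gene with a small subunit name, had a log2 fold change of -0.11 (SE 0.10). Without control 2, Mrps18a was at -0.041 and Mrps30 at -0.034, and without control 3 Mrps6 was at 0.024. Mrps2 fell below 0 without mAktDKO mouse 2 (-0.086) and without control 2 (-0.034).

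Levels between genes were compared as CPM per kb of the longest annotated transcript, in the controls. Per length of transcript, Mrpl42 (mL42, 104 CPM per kb) and Mrpl33 (87.9 CPM per kb) had ranks 1 and 2 of the 77, Mrps21 rank 3 at 64.8 CPM per kb, and Mrps34 rank 8 at 34.3 CPM per kb. The lowest were Mrpl47 and Mrpl32 in the large subunit (3.22 and 3.71 CPM per kb) and Mrps25 and Mrps35 in the small (2.59 and 2.598 CPM per kb). The ends of this order rest on the transcript models: per kb of coding sequence Mrpl33 had rank 1 at 216 CPM per kb, Mrpl51 rank 2 at 188 and Mrpl42 rank 3 at 163, and Mrps25 moved from rank 77 to rank 44. Mrpl42, at the top by transcript length, was level between the groups, with 67.7, 65.8 and 64.5 CPM in the mAktDKO group and 67.5, 76.0 and 64.7 CPM in the controls (log2 fold change -0.07, SE 0.08). Mrpl47 (uL29m) was at 8.94, 7.37 and 9.12 CPM against 10.5, 11.5 and 10.5 CPM (-0.35, SE 0.13, adjusted p = 0.14 in edgeR). The log2 fold changes of Mrps25 and Mrps35 were -0.26 and -0.16, each with an SE of 0.11 to 0.12.

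Most of the transcripts are short, and short transcripts were lower in general. Of the 77 genes, 53 were in the shortest of 4 equal length classes of tested genes (145 to 2049 bases), where the median log2 fold change was -0.10 over all genes and -0.31 over the 53. In the other classes, from short to long, the medians over all genes were 0.00, 0.04 and 0.09, and the 9, 11 and 4 of the 77 genes had medians of -0.19, -0.18 and -0.25. After the trend of log2 fold change with transcript length over all genes was removed, 63 of the 77 were below 0, with a median of -0.20 (Mrpl -0.22, Mrps -0.20). Within the 77 genes, Spearman's rho between log2 fold change and transcript length was 0.19, and across all 12824 genes with a length it was 0.22. These are correlations across genes, which share the same 6 libraries.

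Many of the genes share a promoter region with a neighbor. Of the 77, 26 (33.8%) had the start of a protein-coding gene on the other strand within 1000 bases, against 13.8% of 12516 tested coding genes. The pair within the family, Mrpl46 and Mrps11, is the one whose shared region is printed above. Mrpl46 stood at 9.89, 8.09 and 8.23 CPM in the mAktDKO group and at 11.5, 13.4 and 10.1 CPM in the controls (-0.42, SE 0.14), and Mrps11 at 6.21, 6.83 and 5.14 CPM against 8.04, 6.13 and 6.96 CPM (-0.21, SE 0.16). Outside the family 21 neighbors were tested, of which 14 were below 0, 5 lower and 0 higher at an unadjusted p under 0.05. Of all tested genes, 47.5% were below 0, and 13.1% were lower and 11.4% higher at that p. These neighbors had a median log2 fold change of -0.14, beside -0.27 for the Mrp genes next to them. The absolute difference within such a pair had a median of 0.14 and ran from 0.0043 to 0.64, and it was under 0.1 in 9 of the 21 pairs. Some neighbors, named here after their values were seen, had a log2 fold change close to that of their partner. Ndufs6, a subunit of complex I, was at -0.34 beside Mrpl36 at -0.27, and Sars2, the mitochondrial seryl-tRNA synthetase, at -0.34 beside Mrps12 at -0.31. Others did not: Ncapd2 was at 0.00 beside Mrpl51 at -0.44, and Ppp1r10 at 0.16 beside Mrps18b at -0.31. The median log2 fold change of the 12 genes with an ETS element was -0.41, and -0.25 without it. With an NRF1 core it was -0.28 against -0.27, and with a YY1 element -0.24 against -0.27. These medians are descriptions and were not tested.

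Other genes of mitochondrial translation were read from the same fit, each list counted in full. Of all tested genes, 47.5% were below 0, and 13.1% were lower and 11.4% higher at an unadjusted p under 0.05, which is the share to read these counts against. Of 6 further proteins of the mitochondrial ribosome with other symbols, 6 were below 0 and 3 lower at an unadjusted p under 0.05, with a median of -0.24. Ict1, a peptidyl-tRNA hydrolase built into the large subunit, had a log2 fold change of -0.49 (SE 0.11), Gadd45gip1 (mL64) of -0.41 (SE 0.10) and Dap3, the GTP-binding protein of the small subunit, of -0.34 (SE 0.09). All 3 kept the groups apart, with adjusted p-values of 0.0625 to 0.0838 in edgeR. Of 16 translation factors, 15 were below 0 and 9 lower, with a median of -0.32. The elongation factor Tsfm stood at 9.07, 7.43 and 6.38 CPM in the mAktDKO group and at 12.7, 12.1 and 12.4 CPM in the controls (-0.70, SE 0.14, adjusted p = 0.0531 in edgeR). Qrsl1, a subunit of the amidotransferase that makes Gln-tRNA, had a log2 fold change of -0.48 (SE 0.10), and the elongation factor Gfm1 one of -0.34 (SE 0.08).

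Of 26 assembly factors of the mitochondrial ribosome, 20 were below 0, 10 lower and 0 higher at an unadjusted p under 0.05, with a median of -0.25. Mrm1, a methyltransferase of the large rRNA, stood at 6.91, 6.71 and 6.17 CPM against 11.5, 9.78 and 10.3 CPM (-0.67, SE 0.12, adjusted p = 0.0474 in edgeR). Wbscr16 (Rcc1l) and the GTPase Mtg1 had log2 fold changes of -0.47 and -0.50, and that of Wbscr16 was -0.31 without control 2. Of 20 factors of mitochondrial transcription and RNA handling, 9 were lower and 1 higher, with a median of -0.18. Lrpprc, which stabilizes mitochondrial mRNAs, stood at 114, 110 and 115 CPM against 169, 158 and 140 CPM (-0.46, SE 0.09, adjusted p = 0.0482 in edgeR). Fastk was at -0.47 (SE 0.10) and Polrmt, the mitochondrial RNA polymerase, at -0.53 (SE 0.12). Of 17 mitochondrial aminoacyl-tRNA synthetases, 6 were lower and 0 higher, with a median of -0.26. Lars2, the leucyl-tRNA synthetase, differed most, at 378, 446 and 344 CPM against 844, 811 and 678 CPM (-1.0, SE 0.12, adjusted p = 0.018 in edgeR). Leaving out each mouse in turn gave Lars2 an adjusted p between 0.0139 and 0.0966 in edgeR, above 0.05 without any 1 of the mAktDKO mice or without control 3. For Mrm1 it was between 0.0486 and 0.22 and for Lrpprc between 0.0376 and 0.234, under 0.05 only without control 4. With library totals the adjusted p in edgeR was 0.042 for Lars2, 0.0711 for Mrm1 and 0.0718 for Lrpprc, and with upper-quartile scaling that of Lrpprc was 0.0507. DESeq2's Wald test gave an adjusted p of 3.51e-13 for Lars2, 0.000921 for Lrpprc, 0.00427 for Fastk and 0.00995 for Tsfm, all under 0.01, and 0.0153 for Mrm1. Tars2 was at -0.38 (SE 0.10) and Fars2 at -0.33 (SE 0.11).

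**Figure D4:**
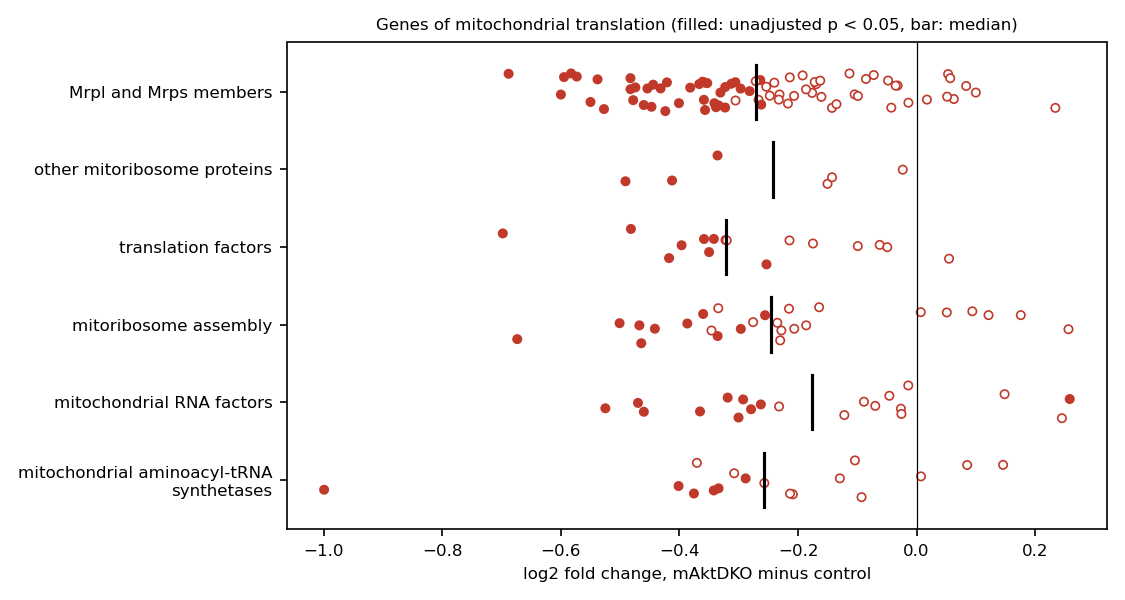
Log2 fold change (mAktDKO minus control, horizontal axis) of each of the 77 genes and of the genes of the 5 further lists, as 1 point per gene, spread vertically only to be visible. Filled points have an unadjusted p under 0.05 and vertical bars are medians, which lie between -0.32 and -0.18. Lars2 at -1.0 is the point farthest to the left.

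The 77 genes were set beside the proteins of the cytosolic ribosome and the nuclear-encoded subunits of complex I. The median log2 fold change of the 75 tested cytosolic ribosomal proteins was -0.05, with 9 lower and 5 higher at an unadjusted p under 0.05, or 12.0% and 6.67% of the list, beside 13.1% and 11.4% of all tested genes. Their mean log2 CPM was 6.28, 6.20 and 6.15 in the mAktDKO mice and 6.28, 6.22 and 6.23 in the controls, and the groups overlapped. The 37 genes named as complex I subunits had a median of -0.36, with 32 lower. This list, taken by symbol, includes Ndufa4 and Ndufa4l2, which are not subunits of complex I, and without these 2, left out after their values were seen, the median was -0.38, with 31 of 35 lower. The mean log2 CPM of the 37 was 6.23, 6.09 and 6.19 against 6.59, 6.59 and 6.44. In that group, as in both subunits of the mitochondrial ribosome, control 4 was the lowest control and mAktDKO mouse 1 the highest mAktDKO mouse. Whether the cytosolic and mitochondrial groups differ in their response was not tested.

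Markers of other cell types were measured in the same libraries. At an unadjusted p under 0.05, 0 of the markers of the other 11 lists were lower, while 2 of 6 slow fiber, 2 of 5 endothelial, 2 of 5 fibro-adipogenic, 2 of 5 macrophage, 4 of 5 adipocyte, 2 of 5 erythroid and 1 of 3 satellite cell markers were higher, and 1 marker each in the smooth muscle, Schwann cell, tendon and other leukocyte lists. Of all tested genes 11.4% were higher and 13.1% lower at that p, and each list holds 7 markers or fewer. The erythroid marker Hbb-bs had the highest log2 fold change of all 12892 genes tested (adjusted p = 0.0180 in edgeR) and is named here after its values were seen. Hbb-bs, a beta-globin gene, was at 23.5, 9.23 and 10.01 CPM in the 3 mAktDKO mice and at 0 counts in all 3 controls. Beta-globin genes are near-identical copies that differ between the haplotypes of mouse strains, and the estimated counts of Hbb-b2 and Hbb-bt were the same in every mouse, so the division of reads between copies is uncertain. Hbb-b1 and Hbb-bs summed to 198, 160 and 88.6 CPM in the mAktDKO group and to 132, 114 and 79.7 CPM in the controls, and these groups overlapped. Whether the groups differed in genetic background beyond the labelled strain was not tested. The summed level of the adipocyte list was 23.1 to 74.0 CPM in the mAktDKO group and 15.1 to 37.05 CPM in the controls, and that of the fibro-adipogenic list 18280 to 21736 against 7284 to 18401 CPM. The 4 other leukocyte markers, of which 1 passed the filter, summed to 6.72 to 7.36 CPM against 3.08 to 5.59 CPM, apart from fast fibers the only list whose groups did not overlap. The part of these lists, and of the lower fast fiber sum, in the lower levels of the 77 genes was not tested.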

How the data were processed

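RNA of EDL from 3 mAktDKO and 3 control mice was sequenced by the study as rRNA-depleted libraries with paired reads of 37 bp. Alignment by the authors was to mm10 with STAR (2.6.2b in the methods, 2.6.1b in the processing notes), and RSEM 1.3.1 gave the expected counts per gene that they deposited, unscaled, and 6 of the 462 values of the 77 genes were not whole. Reads shared by overlapping genes are divided by RSEM's estimate. No column was left unused. Columns of controls bear the numbers 2 to 4, whereas controls are labelled 1 to 3, so such a column stands for its group only.

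Counts were rounded and analysed in R 4.3.3 with edgeR 4.0.16, using filterByExpr at a minimum count of 10, TMM scaling and the quasi-likelihood test with genotype alone in the model, with Benjamini-Hochberg adjustment over all 12892 tested genes. The SE is the log2 fold change divided by the square root of F, and log2 CPM used a prior count of 2. Groups did not overlap where every mAktDKO mouse lay below, or above, every control in CPM. Positions and lengths are from GENCODE M21 (mm10), of the longest protein-coding transcript, and were found for 12824 tested genes. Promoters are from RefSeq. Steps were tested on simulated counts. Precision is limited by 3 mice per group, and the floor of 3 counts covers counting error only.

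The members and lists were chosen with earlier results of these data known. In each subunit the 8 genes with the smallest p, the 3 with the highest log2 fold change and the highest and lowest per length were named, with any at an adjusted p under 0.05, Mrps18a, Mrps18b, Mrps18c, Mrps30 and Mrps36, and at most 3 genes of each related list. Older symbols were matched through RefSeq, and 1 of 17 listed translation factors was not matched. Alternatives were other scalings (library totals, upper quartile, the size factors of DESeq2), the Wald test of DESeq2 1.42.0, other filters, an adjusted p under 0.05, removal of the length trend (lowess, span 0.3) and leaving out each mouse.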

Additional observations from a re-analysis of the deposited data

How the results depend on the processing

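Of all genes tested, 3 were called at an adjusted p under 0.01 in edgeR, 338 with DESeq2 and 32 with edgeR, both on 17360 genes without the filter, and 152 at an adjusted p under 0.05. Of the 77 Mrp genes 0 were called in edgeR, 6 with DESeq2 and 2 at an adjusted p under 0.05. That 2 (of 152 genes) became 13 (of 785) with DESeq2, 7 (of 381) without the filter, 5 (of 264) with at least 10 counts in every mouse, 0 (of 210) with library totals, and 0 to 8 (of 3 to 388) when each mouse was left out. With library totals, 15 of the 77 were lower at an unadjusted p under 0.05 (all genes 5.02%). Groups did not overlap in 22 that were lower (all genes 6.90%) and in 1 that was higher (all genes 26.5%). The medians were then -0.13 for all, -0.17 for Mrpl and -0.11 for Mrps genes. There 58 of the 77 were below 0, and 11 moved above it, among them Mrpl42 (0.066), Mrps18a (0.0055) and Mrps30 (0.026), all 3 below the median of all genes (0.16). With the length trend removed, the median of the Mrpl genes was -0.22 and the difference between the subunits -0.024. When each mouse was left out in turn, between 0 and 8 of all genes and 0 of the 77 were called, 26 (without mAktDKO mouse 2, all genes 8.08%) to 44 of the 77 (without control 4, all genes 13.3%) were lower at an unadjusted p under 0.05, and the median was between -0.35 (without control 4) and -0.26. The log2 fold change of Mrps2 then ran from -0.086 to 0.15, that of Mrpl32 from -0.035 to 0.15 and that of Mrpl20 from -0.011 to 0.11. Of the 47 genes chosen by the naming rule above, 12 moved by over 1.5 times. Among them were Mrpl22 (0.035 without control 4, 0.13 without control 3), Mrpl42 (-0.0038 without control 3), Mrps25 (-0.17) and Mrps35 (-0.068), both without control 2. Other genes given with a fold change, such as Mrpl46, Mrps11 and the neighbors, were not followed through these fits. DESeq2 size factors and upper-quartile scaling moved none of these counts or medians of the 77 genes by over 1.5 times. The cause of these shifts was not tested. No paired analysis was possible because numbers 2 to 4 on the columns of controls do not identify the mice labelled 1 to 3. Depth limits the genes near 5.01 CPM, the lowest of the 77, more than the rest.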
